A study of Mus musculus with 27 samples.

Results

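Ccn1, Ccn2, Ankrd1, Amotl2, Ajuba, Lats2 and Axl are 7 genes widely used as a readout of the transcriptional co-activator YAP. They were taken by symbol from a table of 55414 genes counted in liver RNA, and all 7 had a row. Each was followed through all 8 groups of mice. The genes were chosen by name and not by their values in these livers, although earlier results of the same data were known when the set was drawn up.

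YAP and its paralogue TAZ (encoded by Yap1 and Wwtr1) are the effectors of the Hippo pathway. When the kinases MST1/2 and LATS1/2 are active, YAP is phosphorylated and held in the cytoplasm. When they are inactive, YAP enters the nucleus and drives transcription through the TEAD family of DNA-binding proteins. In liver, YAP responds to tissue stiffness and injury, and it is active in stellate cells as they turn into matrix-producing myofibroblasts.

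The study asked how inhibition of hyaluronan synthesis changed the transcriptome of the fibrotic liver. Poly(A) RNA from total liver of 27 female Balb/c mice, 8 weeks old, was sequenced. Fibrosis was induced with intraperitoneal carbon tetrachloride (CCl4), a hepatotoxin, for 2 weeks in 14 mice, and the other 13 had olive oil by the same route. Within each arm mice had no inhibitor, 4-methylumbelliferone (4MU, an inhibitor of hyaluronan synthesis) by daily gavage, or lipid nanoparticles given in the tail vein 2 times per week with siRNA against Has2 (siHAS2-LNP) or against luciferase (siLuc-LNP, the non-targeting control). The groups without CCl4 were control (n = 4, oil and tail vein PBS), 4MU (n = 3), siLuc-LNP (n = 3) and siHAS2-LNP (n = 3). The groups with CCl4 were CCl4 (n = 2), CCl4 + 4MU (n = 4), CCl4 + siLuc-LNP (n = 4) and CCl4 + siHAS2-LNP (n = 4). The labels name the CCl4 injection alone for the CCl4 group, so whether those 2 mice also had a vehicle in the tail vein or by gavage is not stated there. The labels give separate replicates without an animal number, so the p-values measure the spread between these samples.

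The libraries held 7044386 to 29425937 counts, and the smallest was CCl4 + siHAS2-LNP mouse 4. Has2, the gene targeted by the siRNA, had 0 counts in 25 of the 27 livers, 2 counts in CCl4 mouse 2 and 1 count in CCl4 + siLuc-LNP mouse 4. A count of 0 allows a level of up to 0.102 to 0.426 CPM (counts scaled to a common library size) depending on the library, so a knockdown of Has2 was not detectable at this depth. The 6 hepatocyte genes listed for the check of the tissue (Alb, Ttr, Apoa1, Hnf4a, Tat and Cps1) summed to between 72652 CPM, in a CCl4 mouse, and 196260.0 CPM, in a control mouse. CCl4 mouse 2 decided several of the calls below, so values without it are given beside the calls for genes of the YAP readout. For the other genes and lists none are given, so their calls that use the CCl4 group may also rest on that mouse. With CCl4 mouse 2 left out, the CCl4 group is a single mouse that is assumed to vary like the mice of the other groups.

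The DNA before the transcription start of 4 of the genes is shown because these are genes whose promoter holds the letters of a TEAD site, or, for Ajuba, the gene with the smallest adjusted p for CCl4 and no such letters. Each run is the 250 bases before the canonical start in the GRCm39 reference (start sites from GENCODE M39), written 5′ to 3′ along the gene's own strand. Capitals mark GGAATG, the core of a TEAD site, on either strand.
Ccn1 (chr3:145355739-145355988, minus strand): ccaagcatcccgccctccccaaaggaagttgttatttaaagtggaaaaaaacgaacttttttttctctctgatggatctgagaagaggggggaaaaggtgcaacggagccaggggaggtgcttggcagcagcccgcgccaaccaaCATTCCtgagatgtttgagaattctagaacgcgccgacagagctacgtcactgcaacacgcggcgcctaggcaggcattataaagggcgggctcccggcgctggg
Amotl2 (chr9:102594617-102594866, plus strand): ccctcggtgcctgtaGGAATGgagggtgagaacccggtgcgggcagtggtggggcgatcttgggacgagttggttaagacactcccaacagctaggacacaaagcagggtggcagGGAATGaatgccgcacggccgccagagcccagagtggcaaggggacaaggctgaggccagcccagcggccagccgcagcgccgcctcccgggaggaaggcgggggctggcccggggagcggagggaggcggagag
Axl (chr7:25488330-25488579, minus strand): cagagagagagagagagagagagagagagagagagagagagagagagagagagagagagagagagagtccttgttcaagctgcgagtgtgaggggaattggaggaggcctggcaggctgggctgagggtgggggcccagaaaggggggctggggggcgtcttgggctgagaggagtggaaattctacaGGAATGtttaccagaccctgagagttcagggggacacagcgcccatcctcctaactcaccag
Ajuba (chr14:54815016-54815265, minus strand): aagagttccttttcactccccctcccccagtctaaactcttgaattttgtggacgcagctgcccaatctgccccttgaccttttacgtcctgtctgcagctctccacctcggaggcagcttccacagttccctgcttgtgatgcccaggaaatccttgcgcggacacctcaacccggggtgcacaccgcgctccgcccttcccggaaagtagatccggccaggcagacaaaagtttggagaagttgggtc

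The search covered these 250 bases and the first 50 transcribed bases of 6 of the genes. Amotl2 had 2 matches, Ccn1 and Axl had 1 each, and Ankrd1, Ajuba and Lats2 had 0. Of 21757 protein-coding promoters of the same length, 14.0% held the letters at least once. None of the 6 windows held TGANTCA, the AP-1 site (7.15% of promoters), or the CArG box bound by serum response factor (1.54% of promoters). A match of letters is a description of the window and not a mapped binding site.

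Compared per kilobase of exon, the genes differed widely in level. Over the 27 livers the median was 4.81 CPM per kb for Ccn1, 3.00 for Amotl2 and 2.64 for Axl. It was 1.29 CPM per kb for Ajuba, 1.14 for Ccn2, 0.697 for Lats2 and 0.0858 for Ankrd1. Ankrd1 was therefore close to the limit of detection, with 1 to 58 counts per library, and did not reach the mean of 10 counts that a gene needed to be tested. The other 6 were among the 14114 genes tested.

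**Figure D1:**
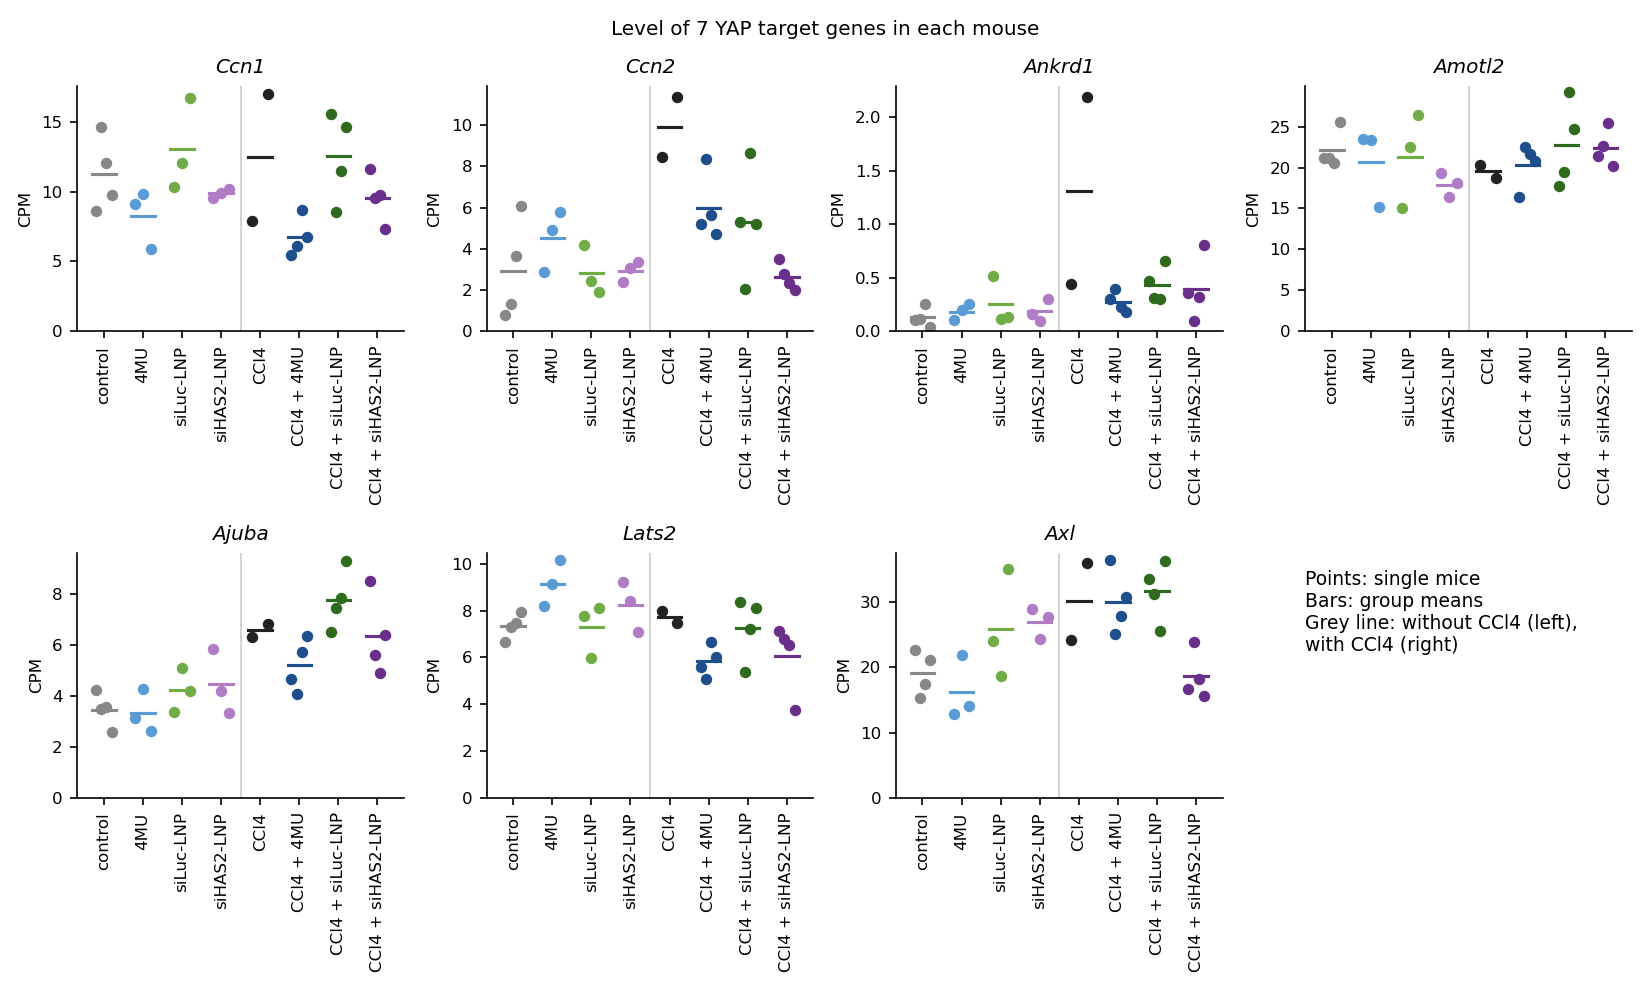
Level of each of the 7 genes in CPM (vertical axis, starting at 0) in the 8 groups (horizontal axis), with a point for each mouse and a bar at the group mean. For Ccn2 the 2 CCl4 mice lie at 8.46 and 11.4 CPM, above all 4 control mice, and the Ankrd1 mean of the CCl4 group rests on a single mouse at 2.18 CPM.

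The averaged effect of CCl4 asked which of the genes differed with CCl4 in the mean over the treatment arms. A gene could pass it on a change in only some of the arms. With CCl4 averaged over the 4 treatment arms (14 mice against 13, edgeR quasi-likelihood test, Benjamini-Hochberg adjustment over all tested genes), Ccn2, Ajuba and Axl rose, Lats2 fell, and Ccn1 and Amotl2 did not pass the test. Among all genes 26.3% were called higher and 25.6% lower, against 3 of the 6 higher and 1 lower. With so common a change over all genes, these counts alone do not set the 6 genes apart. Scaling the libraries by their totals in place of the trimmed mean of M values (TMM) raised the median of all genes from -0.02 to 0.16 and turned the split of all calls from 3711 higher and 3608 lower into 5385 higher and 1842 lower, so log2 values of this size depend on the scaling. The median log2 fold change was 0.19 over the 6 genes.

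Ccn2 and Ccn1 encode secreted matricellular proteins of the CCN family. Ccn2 (also called CTGF, ENSMUSG00000019997, chr10:24471333-24474900) acts on matrix production downstream of TGF-β as well as of YAP. In control livers it measured 0.763, 1.30, 3.63 and 6.09 CPM, and in CCl4 livers 8.46 and 11.4 CPM. The ranges did not overlap, although the control mice spanned a wide range. The log2 fold change was 1.73 ± 0.50 (SE), or 3.31-fold, with an adjusted p of 0.00964 by edgeR. Without CCl4 mouse 2 it was 1.52 with an adjusted p of 0.110.

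In the other arms the CCl4 difference of Ccn2 did not pass the test, but a difference between arms was not shown either, since the interaction tests for Ccn2 did not pass (adjusted p = 0.220 for 4MU, 0.729 for siLuc-LNP and 0.114 for siHAS2-LNP). Ccn2 measured 2.87, 4.92 and 5.77 CPM in 4MU livers, against 5.20, 8.37, 5.65 and 4.69 CPM in CCl4 + 4MU livers, and these ranges overlapped (log2 fold change 0.40, 95% interval -0.55 to 1.35, adjusted p = 0.568). It measured 4.17, 2.45 and 1.89 CPM in siLuc-LNP livers, against 5.28, 2.04, 8.64 and 5.19 CPM in CCl4 + siLuc-LNP livers (log2 fold change 0.89, 95% interval -0.10 to 1.89, adjusted p = 0.181). In the siHAS2-LNP arm Ccn2 measured about the same with and without CCl4. The levels were 2.38, 3.06 and 3.34 CPM without CCl4 and 3.48, 2.78, 2.33 and 2.00 CPM with it, and the log2 fold change was -0.11 (95% interval -1.12 to 0.89, adjusted p = 0.917), or 0.07 when libraries were scaled by their totals. Averaged over the arms Ccn2 rose by 0.73 ± 0.24 on the log2 scale (adjusted p = 0.0147), and this call held with any single mouse left out (0.65 to 0.88).

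In the presence of CCl4, Ccn2 was lowest with siHAS2-LNP. All 4 CCl4 + siHAS2-LNP livers lay below both CCl4 livers, with a log2 fold change of -1.88 ± 0.51, or 3.67-fold lower (adjusted p = 0.0158, edgeR). Without CCl4 mouse 2 the value was -1.67 with an adjusted p of 0.186. The differences of CCl4 + 4MU (-0.73, 95% interval -1.76 to 0.29, adjusted p = 0.307, ranges not overlapping) and of CCl4 + siLuc-LNP (-0.92, 95% interval -1.94 to 0.10, adjusted p = 0.413) from CCl4 did not pass the test. Against the non-targeting nanoparticle, which is the control for delivery, siHAS2-LNP gave -0.96 ± 0.44 (adjusted p = 0.278), and the ranges of CCl4 + siHAS2-LNP and CCl4 + siLuc-LNP overlapped. CCl4 + 4MU lay above CCl4 + siHAS2-LNP by 1.14 ± 0.44 on the log2 scale (adjusted p = 0.167), with no overlap between the 2 groups.

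Markers of stellate cells and myofibroblasts, and of mesothelium, were higher in CCl4 livers and lower in CCl4 + siHAS2-LNP than in CCl4 livers, as Ccn2 was. The 12 stellate and myofibroblast genes of that list (among them Acta2, Col1a1, Col1a2, Timp1 and Des) summed to 246 to 351 CPM in control livers, 859 to 1210 CPM in CCl4, 392 to 862 CPM in CCl4 + 4MU, 673 to 1449 CPM in CCl4 + siLuc-LNP and 416 to 609 CPM in CCl4 + siHAS2-LNP. In CCl4 + siHAS2-LNP against CCl4, 0 of 11 tested were higher and 5 were lower (14.4% of all genes called in either direction). Those lower included Acta2, the smooth muscle actin of myofibroblasts (-3.32, adjusted p = 0.0126). Within the siHAS2-LNP arm these markers did not run with Ccn2. The sums were 287 to 290.4 CPM without CCl4. With it 6 of 11 genes were higher (7.74% of all genes) and 0 lower (5.09%), with a list median of 0.90, while Ccn2 had a value of -0.11. Of the 5 mesothelial genes (Msln, Upk3b, Upk1b, Lrrn4 and Wt1), 5 were higher in CCl4 than in control (list median 2.72, 18.0% of all genes higher). In CCl4 + siHAS2-LNP against CCl4, 4 were lower (list median -1.89, 14.4% of all genes in either direction). They summed to 1.06 to 7.85 CPM in control, 18.2 to 41.7 CPM in CCl4 and 4.38 to 13.6 CPM in CCl4 + siHAS2-LNP livers. Other lists ran this way in part. Of 6 sinusoidal endothelial genes, 2 were higher (18.0% of all genes) and 1 lower (16.1%) in CCl4 than in control. In CCl4 + siHAS2-LNP against CCl4, 0 of them were higher and 2 lower (list median -0.76, 14.4% of all genes in either direction). The 7 cholangiocyte genes summed to 51.6 to 95.1 CPM in control and 252 to 307 CPM in CCl4 livers. In CCl4 + siHAS2-LNP livers the sums were 164 to 264 CPM, which overlapped those of CCl4. The part of cell composition in the Ccn2 result was not tested. In bulk liver RNA, fewer cells of a type and less RNA per cell cannot be told apart.

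Ccn1 (also called CYR61, ENSMUSG00000028195, chr3:145352720-145355738), which limits fibrosis in several models by driving myofibroblasts into senescence, did not pass the test with CCl4 in any arm. Control livers measured 8.64, 14.7, 12.0 and 9.76 CPM, 4MU livers 9.11, 9.87 and 5.87 CPM, siLuc-LNP livers 10.3, 12.1 and 16.7 CPM and siHAS2-LNP livers 9.56, 9.94 and 10.2 CPM. With CCl4, siLuc-LNP livers measured 15.6, 8.52, 11.5 and 14.6 CPM and siHAS2-LNP livers 11.6, 9.56, 9.78 and 7.34 CPM. Its group means lay between 6.76 and 13.0 CPM, and every group overlapped its neighbour in the order of means. Averaged over the arms the CCl4 difference was -0.06 (95% interval -0.33 to 0.22, adjusted p = 0.738), and 0.13 when libraries were scaled by their totals. The 2 CCl4 livers differed from each other, at 7.92 and 17.0 CPM. Ccn1 was lowest in CCl4 + 4MU livers, at 5.46, 6.13, 8.71 and 6.75 CPM. That group was lower than CCl4 by 0.88 ± 0.28 on the log2 scale by edgeR (log2 fold change -0.88, adjusted p = 0.0315), but the ranges overlapped and without CCl4 mouse 2 the value was -0.25 (adjusted p = 0.728). The call was also lost without CCl4 + 4MU mouse 1 (-0.79, adjusted p = 0.0775), mouse 2 (-0.87, adjusted p = 0.0574) or mouse 4 (-0.88, adjusted p = 0.0620), with limma-voom (-0.88, adjusted p = 0.0579) and with only those groups fitted (-0.90, adjusted p = 0.0766). Against CCl4 + siHAS2-LNP the difference of CCl4 + 4MU was -0.51 (95% interval -1.01 to -0.02, adjusted p = 0.253).

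Ankrd1 (ENSMUSG00000024803, chr19:36089352-36097506) encodes a stress-induced ankyrin repeat protein best known from heart and skeletal muscle. It had 2, 2, 6 and 1 counts in control livers and 9 and 58 counts in CCl4 livers. Without CCl4 it had 2, 5 and 5 counts with 4MU, 9, 2 and 3 counts with siLuc-LNP and 4, 2 and 5 counts with siHAS2-LNP. In the other groups given CCl4 it had 7, 8, 6 and 5 counts with 4MU, 12, 8, 5 and 19 counts with siLuc-LNP and 9, 2, 8 and 6 counts with siHAS2-LNP. Counts this low leave wide error, and CCl4 mouse 2 stood far above every other mouse. A fit of all 31177 genes with any count, run because Ankrd1 was not tested otherwise, gave a log2 fold change of 3.30 ± 0.68 for CCl4 against control (adjusted p = 5.79e-05) and 1.40 ± 0.35 averaged over the arms (adjusted p = 0.000624). Without CCl4 mouse 2 these were 1.74 ± 0.95 (adjusted p = 0.399) and 1.00 ± 0.39 (adjusted p = 0.0525). The same fit put Ankrd1 lower than CCl4 in CCl4 + 4MU (-2.27, adjusted p = 0.00834) and in CCl4 + siHAS2-LNP (-1.95, adjusted p = 0.0445) but not in CCl4 + siLuc-LNP (-1.58, adjusted p = 0.283). Without that mouse the first 2 were -0.73 (adjusted p = 0.939) and -0.40 (adjusted p = 1.0), and neither passed.

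Amotl2, Ajuba and Lats2 are targets of YAP that also act back on it. Amotl2 (ENSMUSG00000032531, chr9:102593836-102610617), an angiomotin family protein that tethers YAP at cell junctions, changed little. Control livers measured 21.2, 21.2, 20.5 and 25.5 CPM and CCl4 livers 20.3 and 18.8 CPM. With 4MU the levels were 23.4, 23.3 and 15.2 CPM without CCl4 and 16.4, 22.6, 21.6 and 20.8 CPM with it. In both nanoparticle arms the ranges lay near these, from 15.0 to 29.3 CPM. Its group means lay between 17.9 and 22.8 CPM, all neighbouring groups overlapped, and the CCl4 difference averaged over the arms was 0.05 (95% interval -0.14 to 0.25, adjusted p = 0.663). In the edgeR fit it did not pass the test in any of the 19 comparisons.

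Ajuba (ENSMUSG00000022178, chr14:54804787-54815027) encodes a LIM domain protein that binds LATS kinases and restrains them. It measured 4.22, 3.48, 3.58 and 2.57 CPM in control livers against 6.32 and 6.85 CPM in CCl4 livers, with no overlap (log2 fold change 0.93 ± 0.26, adjusted p = 0.00733). Without CCl4 mouse 2 the difference was 0.89 with an adjusted p of 0.0724. A separate set of animals, the siLuc-LNP arm, measured 3.37, 5.12 and 4.21 CPM without CCl4 and 6.54, 7.48, 7.86 and 9.31 CPM with it. These ranges did not overlap either (log2 fold change 0.88 ± 0.24, adjusted p = 0.00831), and without siLuc-LNP mouse 1 the difference was 0.74 with an adjusted p of 0.0568.

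In the remaining arms Ajuba was also higher with CCl4 in value but did not pass the edgeR test. The 4MU livers measured 3.12, 4.29 and 2.63 CPM and the CCl4 + 4MU livers 4.68, 4.08, 5.72 and 6.36 CPM (log2 fold change 0.64 ± 0.24, adjusted p = 0.0542). The call was made with DESeq2 (0.63, adjusted p = 0.0433), without 4MU mouse 2 (0.86, adjusted p = 0.0309) and without CCl4 + 4MU mouse 2 (0.72, adjusted p = 0.0395). The siHAS2-LNP livers measured 5.85, 4.19 and 3.34 CPM and the CCl4 + siHAS2-LNP livers 8.52, 5.61, 4.89 and 6.40 CPM (log2 fold change 0.50 ± 0.24, adjusted p = 0.169). Averaged over the arms, Ajuba rose by 0.74 ± 0.12 on the log2 scale, or 1.67-fold (adjusted p = 1.9e-05). This was the smallest adjusted p among the 6 tested genes in that comparison, and the value ranged from 0.69 to 0.81 with single mice left out. Ajuba was not called by edgeR in the comparisons run between groups of CCl4 mice. CCl4 + 4MU was not tested against CCl4 + siLuc-LNP. Their ranges did not overlap, at 4.08 to 6.36 CPM and 6.54 to 9.31 CPM.

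Lats2 (ENSMUSG00000021959, chr14:57926960-57995845), the kinase that phosphorylates YAP, was lower with CCl4 where it was called. In 4MU livers it measured 8.19, 9.13 and 10.2 CPM and in CCl4 + 4MU livers 5.59, 5.08, 6.65 and 6.01 CPM. The groups did not overlap, and the log2 fold change was -0.65 ± 0.18, or 1.57-fold lower (adjusted p = 0.0118, edgeR). Without 4MU mouse 3 it was -0.57 with an adjusted p of 0.0647. The control livers measured 6.66, 7.31, 7.47 and 7.96 CPM and the CCl4 livers 7.97 and 7.49 CPM, which overlapped. In the siLuc-LNP arm Lats2 measured 7.77, 5.98 and 8.12 CPM without CCl4 and 8.38, 5.40, 7.20 and 8.14 CPM with it. In the siHAS2-LNP arm it measured 9.24, 8.43 and 7.11 CPM without CCl4 and 7.12, 6.78, 6.54 and 3.73 CPM with it, and the lowest value came from the library with the fewest counts. The test of whether the CCl4 effect differed between the 4MU arm and the arm without inhibitor gave -0.72 ± 0.28 (adjusted p = 0.104). Scaled by library totals it was -1.14 and passed (adjusted p = 0.0248), so the call depends on the scaling.

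Averaged over the arms Lats2 fell by 0.25 ± 0.10 on the log2 scale (log2 fold change -0.25, adjusted p = 0.0302). This call was fragile. It was lost when libraries were scaled by their totals (-0.07, adjusted p = 0.617) and when all genes with any count were fitted (adjusted p = 0.106). It was also lost without CCl4 mouse 1 (adjusted p = 0.0564), CCl4 mouse 2 (0.0784), 4MU mouse 3 (0.0564), siLuc-LNP mouse 3 (0.0562), siHAS2-LNP mouse 1 (0.0755) or CCl4 + siLuc-LNP mouse 2 (0.0605), each an adjusted p.

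**Figure D2:**
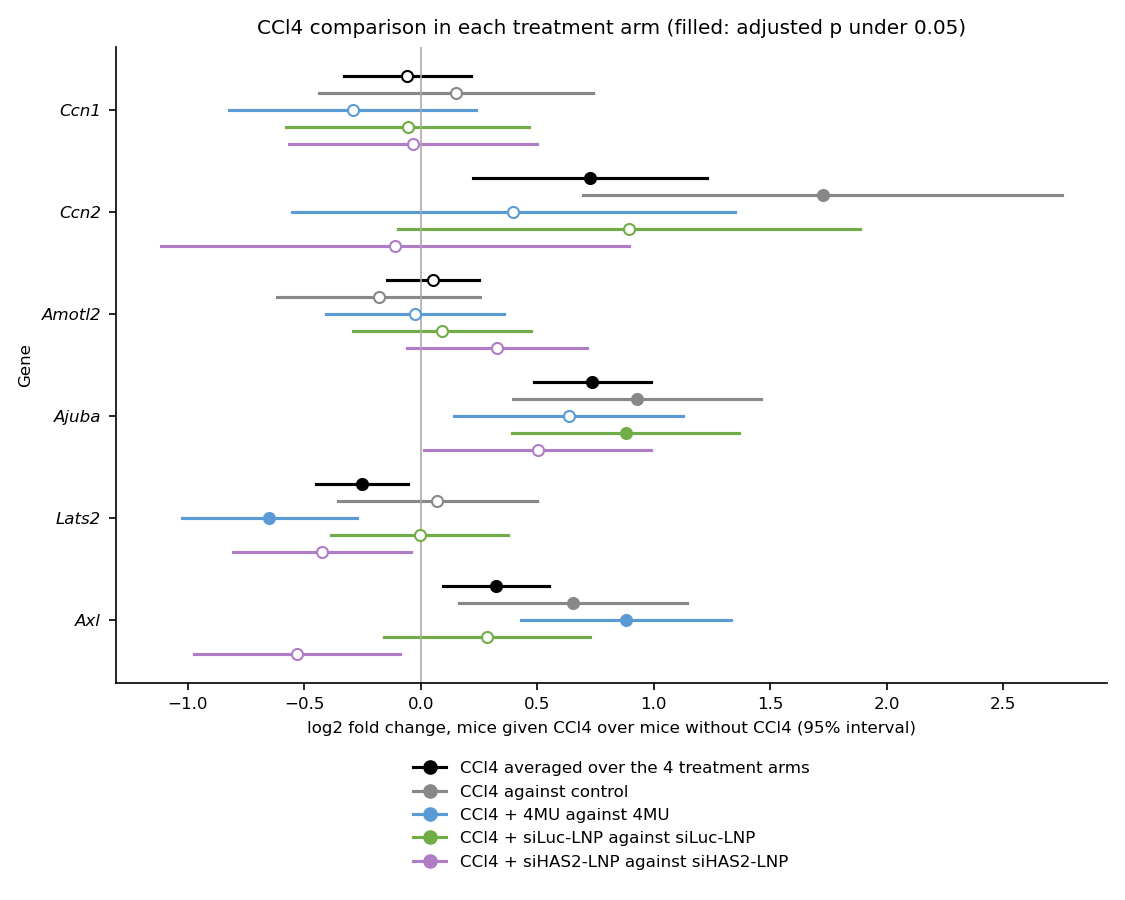
log2 fold change between mice with and without CCl4 (horizontal axis) for each of the 6 tested genes (vertical axis), averaged over the 4 arms and within each arm, as points with 95% intervals, filled where the adjusted p was under 0.05. Ajuba lies to the right of 0 in every arm, Axl lies at 0.88 with 4MU and at -0.53 with siHAS2-LNP, and Amotl2 stays near 0.

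Axl (ENSMUSG00000002602, chr7:25456535-25488329) encodes a receptor tyrosine kinase of the TAM family. It is carried by macrophages, endothelium and stellate cells, and its ligand is Gas6. Control livers measured 22.6, 15.3, 17.4 and 21.2 CPM and CCl4 livers 24.2 and 36.0 CPM, with no overlap (log2 fold change 0.65 ± 0.24, adjusted p = 0.0354). The difference lost its call without CCl4 mouse 2 (0.36, adjusted p = 0.456), control mouse 2 (0.56, adjusted p = 0.0924) or control mouse 3 (0.63, adjusted p = 0.0672), and with limma-voom (0.66, adjusted p = 0.109).

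The change of Axl with CCl4 took opposite signs among the arms. In the 4MU arm it rose, from 12.8, 22.0 and 14.1 CPM to 36.4, 25.1, 27.9 and 30.9 CPM, with no overlap (log2 fold change 0.88 ± 0.22, adjusted p = 0.00478, and called without any single mouse of that arm). In the siLuc-LNP arm the levels were 24.0, 18.7 and 35.2 CPM without CCl4 and 33.5, 31.3, 25.5 and 36.4 CPM with it, which overlapped (log2 fold change 0.29 ± 0.21, adjusted p = 0.353). In the siHAS2-LNP arm the values ran the other way, at 29.0, 24.3 and 27.7 CPM without CCl4 and 16.7, 23.9, 18.3 and 15.6 CPM with it. These ranges did not overlap, but the log2 fold change of -0.53 ± 0.21 did not pass the test (adjusted p = 0.105).

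The difference between the arms was tested as an interaction. The CCl4 effect on Axl was lower in the siHAS2-LNP arm than in the arm without inhibitor by 1.19 ± 0.32 on the log2 scale (log2 difference -1.19, adjusted p = 0.0279), and lower than in the 4MU arm by 1.41 ± 0.31 (log2 difference -1.41, adjusted p = 0.0163). Both tests were added after the values had been seen. The first call was lost without CCl4 mouse 2 (-0.91, adjusted p = 0.237), control mouse 2 (-1.09, adjusted p = 0.0602), siHAS2-LNP mouse 1 (-1.14, adjusted p = 0.0647) or mouse 3 (-1.17, adjusted p = 0.0559), and CCl4 + siHAS2-LNP mouse 3 (-1.18, adjusted p = 0.0522) or mouse 4 (-1.12, adjusted p = 0.0511), and with limma-voom (-1.15, adjusted p = 0.0629). The second was lost without 4MU mouse 1 (-1.27, adjusted p = 0.0629) or mouse 3 (-1.32, adjusted p = 0.0514), and when libraries were scaled by their totals (-1.21, adjusted p = 0.0879). Against the delivery control, the siLuc-LNP arm, the difference was -0.82 ± 0.30 (adjusted p = 0.298) and did not pass. The 4MU arm and the arm without inhibitor did not differ detectably (0.23, 95% interval -0.44 to 0.90, adjusted p = 0.689), and the sign of that value turned with scaling by library totals (-0.21).

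Within CCl4 mice, Axl was lowest with siHAS2-LNP, at 18.6 ± 3.66 CPM (SD, n = 4), against 30.1 ± 8.35 CPM with CCl4 (n = 2), 30.1 ± 4.85 CPM with 4MU (n = 4) and 31.7 ± 4.59 CPM with siLuc-LNP (n = 4). The CCl4 + siHAS2-LNP mice overlapped with none of the other 3 groups. None of the 3 differences passed the test. They were -0.69 ± 0.24 against CCl4 (adjusted p = 0.0522), -0.76 ± 0.20 against CCl4 + siLuc-LNP (adjusted p = 0.0582) and 0.69 ± 0.20 for CCl4 + 4MU over CCl4 + siHAS2-LNP (adjusted p = 0.0782). With DESeq2, an alternative test on the same counts, all 3 passed, at adjusted p = 0.0330, 0.0144 and 0.0371. Without CCl4 mouse 2 the difference from CCl4 was -0.40 (adjusted p = 0.541). That difference passed without CCl4 mouse 1 (-0.95, adjusted p = 0.0309) or CCl4 + siHAS2-LNP mouse 2 (-0.84, adjusted p = 0.0287), and the difference from CCl4 + siLuc-LNP passed without CCl4 + siLuc-LNP mouse 3 (-0.88, adjusted p = 0.0385). Averaged over the 4 arms, Axl rose with CCl4 by 0.32 ± 0.11 on the log2 scale (adjusted p = 0.0174), a mean over arms that differed in sign, and this fell to 0.25 (adjusted p = 0.0914) without CCl4 mouse 2.

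Among macrophage genes, Adgre1 followed Axl closely, whereas the Kupffer cell list as a whole ran with Axl in some groups and against it in others. Of all genes compared, Adgre1, which encodes the macrophage surface protein F4/80, had the pattern most like that of Axl over the 27 libraries (Pearson's r of log2 CPM 0.93, and 0.86 with group means removed). Plekho2 (r = 0.91) and Slc15a3 (r = 0.88) followed. Adgre1 measured 8.02, 12.3, 7.46 and 7.20 CPM in CCl4 + siHAS2-LNP livers and 19.2, 14.1 and 16.6 CPM in siHAS2-LNP livers, and its interaction was -1.82 ± 0.51 (adjusted p = 0.0343). The 6 Kupffer cell genes (Clec4f, Vsig4, Cd5l, Timd4, Marco and Adgre1) summed to 97.2 to 136 CPM in CCl4 + siHAS2-LNP, 330 to 385 CPM in siHAS2-LNP, 262 to 283 CPM in CCl4 and 199 to 393 CPM in CCl4 + 4MU livers. The sums were 302 to 472 CPM in control, 154 to 346 CPM in 4MU, 229.8 to 422 CPM in siLuc-LNP and 130 to 212 CPM in CCl4 + siLuc-LNP livers. The last range overlapped that of CCl4 + siHAS2-LNP, although mean Axl was highest there. With CCl4 averaged over the arms, 0 of the 6 Kupffer cell genes were higher (26.3% of all genes) and 4 were lower (25.6%), while Axl rose. In the siHAS2-LNP arm 4 of the 6 were lower with CCl4 (5.09% of all genes) and 0 higher (7.74%). Those lower included Clec4f, the lectin that defines Kupffer cells (-2.12, adjusted p = 2.35e-05), and Timd4 (-2.34, adjusted p = 8.77e-06). The 5 infiltrating monocyte genes (Ly6c2, Ccr2, Itgam, Lyz2 and Cx3cr1) also ran with Axl in part. With CCl4 averaged over the arms 5 were higher (26.3% of all genes) and 0 lower (25.6%). Their median sum in CCl4 + siHAS2-LNP livers was 124 CPM, the lowest among the groups given CCl4. In the interaction against the arm without inhibitor 2 were lower and 0 higher (list median -1.33, 6.39% of all genes in either direction). Within the siHAS2-LNP arm, where Axl ran lower with CCl4, 0 were called (list median 0.17). The part of macrophage or monocyte number in the Axl values was not tested.

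**Figure D3:**
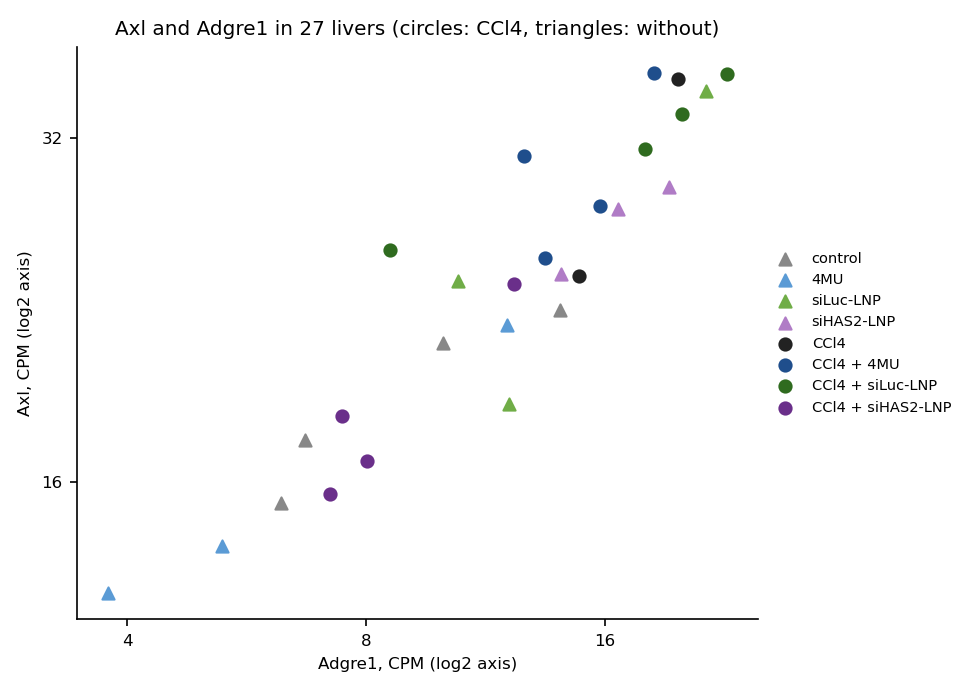
Axl (vertical axis) against Adgre1 (horizontal axis), both in CPM on log2 axes, with a point for each of the 27 livers, circles for mice given CCl4 and triangles for the rest. The points follow a single band (r = 0.93), and 3 of the 4 CCl4 + siHAS2-LNP livers lie in its lower part among control and 4MU livers.

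Counts of the 6 tested genes called in each comparison are set here beside the share of all 14114 genes called, all by edgeR. CCl4 against control called 3 of the 6 higher (18.0% of all genes) and 0 lower (16.1%). CCl4 + 4MU against 4MU called 1 higher (13.2%) and 1 lower (10.5%), and CCl4 + siLuc-LNP against siLuc-LNP called 1 higher (13.0%) and 0 lower (11.2%). CCl4 + siHAS2-LNP against siHAS2-LNP called 0 higher (7.74%) and 0 lower (5.09%), although 3 had an unadjusted p under 0.05. The fit of those groups alone called 1, which was Axl (-0.55, adjusted p = 0.0294).

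Among CCl4 mice the called genes were Ccn1 in CCl4 + 4MU against CCl4 (18.3% of all genes in either direction) and Ccn2 in CCl4 + siHAS2-LNP against CCl4 (14.4%). No member was called in CCl4 + siLuc-LNP against CCl4 (0.248%), where 0 had an unadjusted p under 0.05. None was called in CCl4 + siHAS2-LNP against CCl4 + siLuc-LNP (1.09%, with 2 at an unadjusted p under 0.05) or in CCl4 + 4MU against CCl4 + siHAS2-LNP (1.22%, with 3). DESeq2 called 0 genes in the first of these and 1 in each of the others, which was Axl. These comparisons share the CCl4 mice or treated groups and are not independent of each other.

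Without CCl4 the treatments left the 6 genes without a called change by edgeR, by DESeq2 or by limma-voom. That held for 4MU against control (0.00709% of all genes called, 0 members at an unadjusted p under 0.05), siLuc-LNP against control (0.213%, 1 member), siHAS2-LNP against siLuc-LNP (0.0425%, 0 members) and siHAS2-LNP against control (0.0992%, 1 member). In tests of whether the CCl4 effect differed between arms, 0 members were called for 4MU (5.67% of all genes) and for siLuc-LNP (0.00709%) against the arm without inhibitor, and 0 for siHAS2-LNP against siLuc-LNP (0.0354%). Axl was the member called for siHAS2-LNP against the arm without inhibitor (6.39%) and against the 4MU arm (1.82%). In the first of these Ccn2 had a larger difference with a larger error (-1.84 ± 0.70, adjusted p = 0.114), and it was called without control mouse 4 (-2.49, adjusted p = 0.0296).

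The genes of the pathway itself were taken from fixed lists. Of the effectors and their partners, Yap1 (0.18 ± 0.06, adjusted p = 0.0140), Wwtr1 (0.26 ± 0.09, adjusted p = 0.0218), Tead1 (0.71 ± 0.09, adjusted p = 8.59e-07) and Tead2 (0.90 ± 0.22, adjusted p = 0.00153) rose with CCl4 averaged over the arms. These were 4 of 6 tested (26.3% of all genes), 0 fell (25.6%), and the list median was 0.22. Tead3 and the TEAD repressor Vgll4 did not pass. Tead1, which binds DNA for YAP, was the effector gene that passed within each of the 4 arms, from 0.53 (adjusted p = 0.0376) in the 4MU arm to 0.91 (adjusted p = 0.00107) in the arm without inhibitor. In CCl4 + 4MU against CCl4, 1 of the 6 was lower, Yap1 (-0.43 ± 0.13, adjusted p = 0.0243), and 1 higher, Tead3 (0.70 ± 0.20, adjusted p = 0.0190). The list median was -0.12, and 18.3% of all genes were called in either direction. In CCl4 + siHAS2-LNP against CCl4, 1 was higher, Tead3 (0.87 ± 0.21, adjusted p = 0.00768), and 0 lower (list median -0.01, 14.4% of all genes). Beside these shares, the counts alone do not set the list apart.

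In the upstream kinase cascade, 5 of 17 genes rose with CCl4 (26.3% of all genes) and 1 fell (25.6%), and the list median was -0.02. The core kinase genes Stk3 (0.02), Stk4 (-0.02) and Lats1 (-0.03), the adaptor Sav1 (0.17) and Nf2 (-0.07) did not pass the test. The genes that rose were Map4k4, a kinase that can act on LATS in place of MST1/2 (1.66, adjusted p = 1.74e-13), Amot, the angiomotin paralogue of Amotl2 (1.35, adjusted p = 4.39e-10), Ptpn14 (0.93, adjusted p = 6.13e-05), Frmd6 (0.52, adjusted p = 6.86e-05) and Wwc2 (0.48, adjusted p = 4.56e-07). Taok3 fell (-0.34, adjusted p = 0.00109). Amot and Amotl2, which share a role as YAP tethers, thus had values of 1.35 and 0.05.

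A further 16 genes of a published YAP signature that are not among the 7 were examined in the same way, and 14 were tested (Ptpn14 is in this list and the last). Of these 7 rose (26.3% of all genes) and 3 fell (25.6%) with CCl4 averaged over the arms, with a median of 0.12. The largest rises were in Myof, a membrane repair protein (2.28, adjusted p = 1.58e-10), and Tgfb2, a ligand of the TGF-β pathway (1.62, adjusted p = 1.91e-05). The largest falls were in Nt5e, the ecto-enzyme CD73 (-0.75, adjusted p = 2.89e-05), and Igfbp3 (-0.64, adjusted p = 0.000751). The signature genes, like the 7, were therefore spread on both sides of 0. None of the 14 passed in CCl4 + 4MU (18.3% of all genes called), CCl4 + siHAS2-LNP (14.4%) or CCl4 + siLuc-LNP (0.248%) against CCl4.

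With CCl4 averaged over the arms, close relatives of the members did not move with them as a family. Of the other CCN genes, 2 of 4 were tested and neither passed with CCl4 averaged over the arms, at 0.08 for Ccn4 and 0.41 for Ccn5. Among the relatives of Axl, the ligand gene Pros1 rose (0.53, adjusted p = 4.22e-05), whereas the receptor gene Mertk (-0.43 ± 0.09, adjusted p = 0.000263) and the ligand gene Gas6 (-0.84 ± 0.27, adjusted p = 0.0123) fell, and Tyro3 measured 0.64 (adjusted p = 0.0589). Axl and Mertk, receptors of the same TAM family, thus had averaged changes of opposite sign, although Axl itself differed in sign among the arms. The LIM proteins Limd1 (-0.08) and Wtip (0.23), relatives of Ajuba, did not pass. In other comparisons the 2 tested CCN relatives ran with Ccn2 in part. Their median was -0.85 in CCl4 + siHAS2-LNP against CCl4 and -1.22 in the siHAS2-LNP by CCl4 interaction, with 0 called (14.4% and 6.39% of all genes). In that interaction relative to 4MU it was -1.74, and 1 was called lower (1.82%). In CCl4 + siLuc-LNP against CCl4, where Ccn2 ran lower in value, it was 0.19.

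**Figure D4:**
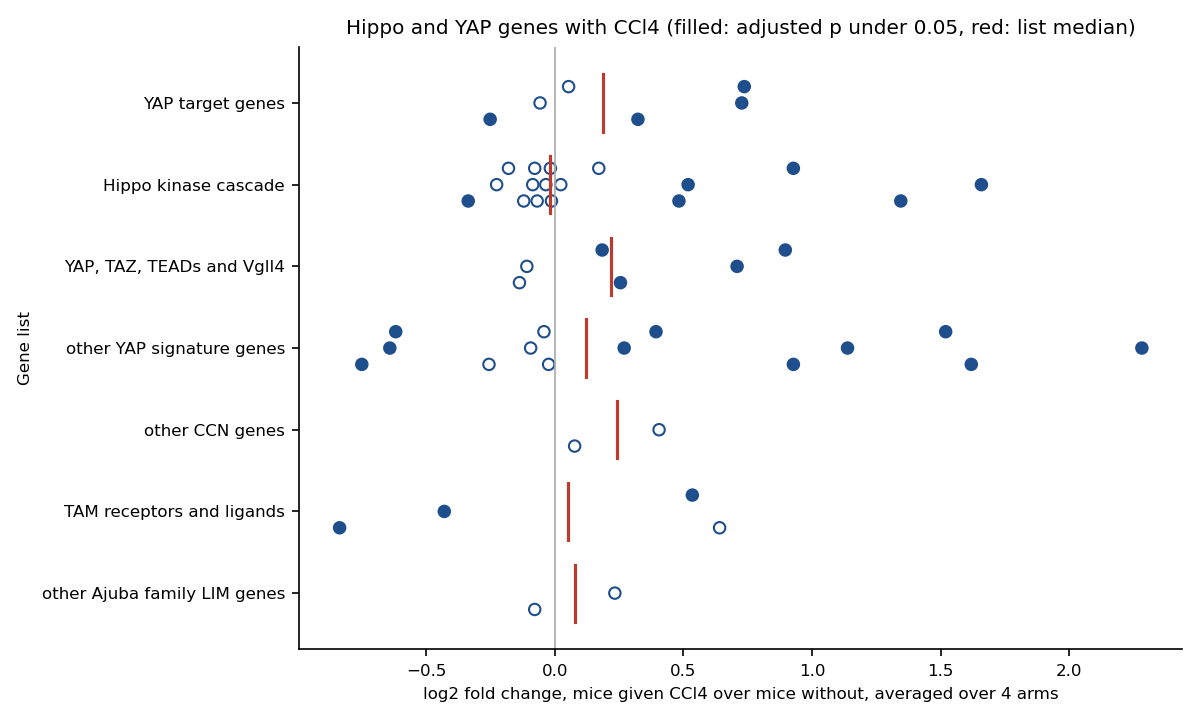
log2 fold change with CCl4 averaged over the 4 arms (horizontal axis) for each tested gene of 7 lists (vertical axis), filled where the adjusted p was under 0.05, with a red bar at the list median. The YAP target genes spread from -0.25 to 0.74, and the kinase cascade holds a cluster near 0 and 5 genes from 0.48 to 1.66.

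Within groups no shared variation of the 7 genes across mice was detected. After each group's mean was removed, Pearson's r over the 21 pairs of genes ranged from -0.44, for Ankrd1 and Amotl2, to 0.41, for Ccn1 and Lats2, with a median of 0.10, and 15 of the 21 were positive. None of the 21 pairs passed a permutation test after Benjamini-Hochberg adjustment (smallest adjusted p = 0.268). Ccn1 and Ccn2, the CCN pair, gave r = 0.11 and Spearman's rho of 0.05 (permutation p = 0.650 and 0.843, adjusted p = 0.905 and 0.954). Without the 2 mice farthest from the median in Ccn1, r was -0.07, and mice far out in Ccn2 alone were not removed.

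The genes most like each member over the 27 libraries also differed between members. For Ccn2 they were Mcam (r = 0.75), Ltbp1 (r = 0.73) and Gprc5a (r = 0.72), and for Ajuba they were Kifc3 (r = 0.88), Aldh18a1 (r = 0.86) and Prr11 (r = 0.85). For Ankrd1 they were Dtymk, Wdhd1 and Recql4 (r = 0.78 to 0.79), for Ccn1 they were Cdc123, Inpp4b and Fzd5 (r = 0.72 to 0.76), and for Lats2 they were Dnaaf2, Dact1 and Rnf138 (r = 0.75 to 0.77). Amotl2 had no close partner, the highest being Kdm6b (r = 0.59). These correlations describe 12839 genes compared over libraries that share their groups, and carry no test.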

How the data were processed

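Poly(A) RNA from total liver of 27 mice was sequenced with a directional library kit. The authors deposited raw read counts per Ensembl gene, and per the labels' processing notes they used Trimmomatic 0.39, HISAT2, the GRCm39 genome, featureCounts, DESeq2 and R 3.4.2; the strand setting of the counting is not given in the sources used here. No normalisation had been applied to the counts.

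Of 55414 Ensembl identifiers, 54749 matched GENCODE M39, and 665 did not. Following the filter of the study, a gene was tested where its mean over libraries reached 10 counts. All 8 groups were fitted together in edgeR 4.0.16 (R 4.3.3) with TMM scaling and the quasi-likelihood test, and p-values were adjusted by Benjamini-Hochberg over all 14114 tested genes, with a threshold of 0.05. CPM values are counts scaled to a common library size after TMM. The study's methods use DESeq2, which was run as an alternative (version 1.42.0), as were limma-voom with quality weights (limma 3.58.1), DESeq2 size factors, no low-count filter, edgeR's filterByExpr, a replicate block, only the compared groups, library totals without TMM, a minimum change of 2-fold, and each mouse left out in turn. The scripts were tested on simulated data. Correlations used 100000 permutations in scipy 1.17.1. Has2 and all 7 genes were described in every group, pathway genes were named from the lists of effectors and of the kinase cascade, and from the other lists the 2 largest and 2 smallest called changes with averaged CCl4; for each member the 3 genes with the highest r were named. The genes Ccn4, Ccn5, Tyro3, Limd1 and Wtip were named after their values were seen, to complete short lists. Members and lists were chosen with earlier results of these data known. Libraries of a group were compared in 34 pairs, and none was a duplicate (chi-square per degree of freedom 15.3 to 416). Promoters of 6 of the 7 genes were read from GRCm39, and the remaining one is not reported here.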

Additional observations from a re-analysis of the deposited data

Results flagged for a closer look

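Amotl2 in control mouse 4 measured 25.5 CPM, while the other control mice measured 20.5 to 21.2 CPM. Its gap to the nearest mouse was 0.864 of the range of the group. In 28 groups of 4 mice examined this way, chance gives about 5% such values.

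Without CCl4, Axl measured 24.3 to 29.0 CPM in siHAS2-LNP and 15.3 to 22.6 CPM in control livers, a difference that was not called. The effect of CCl4 on Axl differed between arms by interaction tests in edgeR. It was -1.19 on the log2 scale for the siHAS2-LNP arm relative to the arm without inhibitor (adjusted p = 0.0279), and -1.41 relative to the 4MU arm (adjusted p = 0.0163). Without CCl4 mouse 2 the first was -0.91 (adjusted p = 0.237), and without 4MU mouse 1 the second was -1.27 (adjusted p = 0.0629).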

How the results depend on the processing

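Of 274 log2 values recomputed with another tool, scaling, filter, block or set of groups, 243 kept their direction and side of the threshold, 9 lost the call, 18 gained one and 4 changed sign. The sign changes were Ccn1 with averaged CCl4 (0.13 with library totals), Amotl2 with averaged CCl4 (-0.025 with limma-voom), Ccn2 in the siHAS2-LNP arm (0.071 with library totals) and the Axl 4MU interaction (-0.21 with library totals). With single mice left out, Ccn1 with averaged CCl4 ranged from -0.22 to 0.065 and the Axl 4MU interaction from -0.035 to 0.52, both reversed without CCl4 mouse 1.

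Counts of called members moved as follows, each group of counts followed by the share of all tested genes called under the same settings. A minimum 2-fold change left 0 with averaged CCl4, 1 for CCl4 against control, and 0 in the 4MU arm, the siLuc-LNP arm and CCl4 + 4MU against CCl4 (8.07% to 18.7% of all genes). Without the low-count filter there were 2 in the siLuc-LNP arm, 2 in CCl4 + 4MU against CCl4, 3 in CCl4 + siHAS2-LNP against CCl4, and 2 each in CCl4 + siHAS2-LNP against CCl4 + siLuc-LNP, in CCl4 + 4MU against CCl4 + siHAS2-LNP and in the siHAS2-LNP by CCl4 interaction (at most 11.2%). With filterByExpr there were 2 in CCl4 + 4MU against CCl4 and 3 in CCl4 + siHAS2-LNP against CCl4 (13.1% to 16.0%). Without the filter Ankrd1 is also tested. DESeq2 gave 2 in CCl4 + siHAS2-LNP against CCl4 (also 2 with its size factors), 1 in CCl4 + siHAS2-LNP against CCl4 + siLuc-LNP and 1 in CCl4 + 4MU against CCl4 + siHAS2-LNP (2.92% to 17.8%). With limma-voom there were 0 in CCl4 + 4MU against CCl4, 1 in CCl4 + 4MU against CCl4 + siHAS2-LNP and 0 in the siHAS2-LNP by CCl4 interaction (6.13% to 14.6%). Fits of only the compared groups gave 1 in the siHAS2-LNP arm, 0 in CCl4 + 4MU against CCl4 and 1 in CCl4 + 4MU against CCl4 + siHAS2-LNP (1.32% to 16.5%). Library totals gave 2 in CCl4 + 4MU against CCl4, 2 in CCl4 + siHAS2-LNP against CCl4, 1 in the 4MU interaction, which was Lats2, and 0 in the siHAS2-LNP interaction relative to 4MU (1.01% to 26.3%). Apart from the tested genes and groups, the cause was not tested.

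With single mice left out, the count ranged from 2 to 4 with averaged CCl4 (45.1% to 52.9% of all genes), 0 to 3 for CCl4 against control (15.3% to 31.6%), 1 to 3 in the 4MU arm (15.1% to 22.4%) and 0 to 1 in the siLuc-LNP arm (16.9% to 26.2%). It ranged from 0 to 1 in CCl4 + 4MU against CCl4 (1.25% to 18.4%), 0 to 2 in CCl4 + siHAS2-LNP against CCl4 (0.765% to 13.6%), 0 to 1 in CCl4 + siHAS2-LNP against CCl4 + siLuc-LNP (0.0283% to 1.63%), 0 to 2 in the siHAS2-LNP by CCl4 interaction (0.234% to 8.19%) and 0 to 1 in that relative to 4MU (0.716% to 3.07%).

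Replicate numbers did not pair the mice (r of same-numbered mice -0.320 to 0.293). With the number as a block, Axl in CCl4 against control was 0.66 (adjusted p = 0.0578), and Ccn1 in CCl4 + 4MU against CCl4 was -0.87 (adjusted p = 0.0578), which left 0 called there. Ankrd1 and Has2 were limited by depth, and the CCl4 group by its 2 mice.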
